A study of Danio rerio with 10 samples.

Results

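The 10 genes described here are npas4l and 9 transcription regulators of blood and vessel cells, namely gata1a, tal1, lmo2, etv2, gata2a, runx1, gfi1b, fli1a and nfe2, out of 32520 gene identifiers in the count files. They were chosen by name, by a rule that uses no measured value, although earlier results of these data were known at the time. All 10 were found. For gene names, 7 matched the name table directly. etv2 is listed there as etsrp and fli1a as FLI1, matched through RefSeq synonyms, and gata2a is listed as GATA2, after its paralogue letter was dropped. The separate gata2b had no count in any clo/+ or gata1a library. All 10 genes passed the filter on low counts in every comparison.

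The series measured polyadenylated RNA in 10 libraries of 2 experiments, each made from a pool of 6000 sorted cells from 15 zebrafish ventricles. In the first, eGFP-positive cells of the CD41 reporter line were sorted after amputation of part of the heart, from wild-type fish (3 libraries) and from fish carrying 1 copy of the clofv087b allele (3 libraries, called clo/+). The sample labels give 1 day after amputation and the series text gives 3 days. In the second, DsRed-positive cells of the gata1a reporter line were sorted 7 days after 4-HT treatment, from control fish (2 libraries) and from fish labelled Npas4l OE (2 libraries). The Npas4l OE fish carry gata1a:Cre-ERT2 and ubi:loxp-eGFP-stop-loxp-Npas4l, so the recombinase is limited to cells that use the gata1a promoter, whereas the ubi promoter drives the transgene. Control replicate 2 is labelled with the Npas4l transgene alone. Control replicate 1 is labelled with another genotype, clofv087b/+, and was kept among the controls by its title. Every library is labelled as platelets.

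Npas4l is a bHLH-PAS transcription factor encoded by the zebrafish cloche locus, and in the early embryo it acts upstream of etv2 and tal1 in the formation of blood and endothelium. tal1 is a bHLH factor that binds DNA with GATA factors through the bridging protein Lmo2. In vertebrates Gata1, Gfi1b and Nfe2 act in the red cell and megakaryocyte lineages, Runx1 and Gata2 in blood stem cells and their progeny, and the ETS factors Fli1 and Etv2 in endothelium, Fli1 also in megakaryocytes. Thrombocytes are the nucleated counterparts of platelets in fish, and CD41, encoded by itga2b, marks them.

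The libraries held between 6764258 and 13067068 gene counts. The thrombocyte list, with 20 matched genes, summed to between 6486 and 14388 counts scaled to library size (CPM) in all libraries. Transcripts of other cells were also present. The 16 cardiomyocyte genes summed to between 23784 and 68911 CPM and the 17 erythroid genes to between 693 and 4129 CPM. The 11 lymphocyte genes summed to at most 13.8 CPM. The labels do not say whether the pools came from separate clutches or days, so p-values measure the spread between these pools. In such bulk samples, fewer cells of a type and less RNA per cell cannot be told apart.

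npas4l was the member that differed most between the 2 experiments. gata2a was also separated between them, at most at 24.8 CPM in the CD41 libraries and at least at 37.9 CPM in the gata1a libraries. npas4l had 6, 33 and 14 counts in the wild-type CD41 libraries and 14, 17 and 32 in clo/+. This corresponds to 0.889, 4.01 and 1.61 CPM in wild type and 1.12, 1.70 and 4.04 CPM in clo/+. The groups overlapped fully, and both held a library above 4 CPM. In the gata1a experiment the 2 controls were at 42.1 and 30.3 CPM and those labelled Npas4l OE at 57.2 and 27.4 CPM. The latter 2 lay on either side of the controls, although the gene is the one the transgene encodes. Exact Poisson intervals, which cover counting error only, ran from 52.0 to 62.7 CPM for Npas4l OE replicate 1 and from 24.2 to 30.9 CPM for replicate 2. Counts per gene do not tell transcripts of the npas4l locus from those of a transgene with the same coding sequence.

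**Figure D1:**
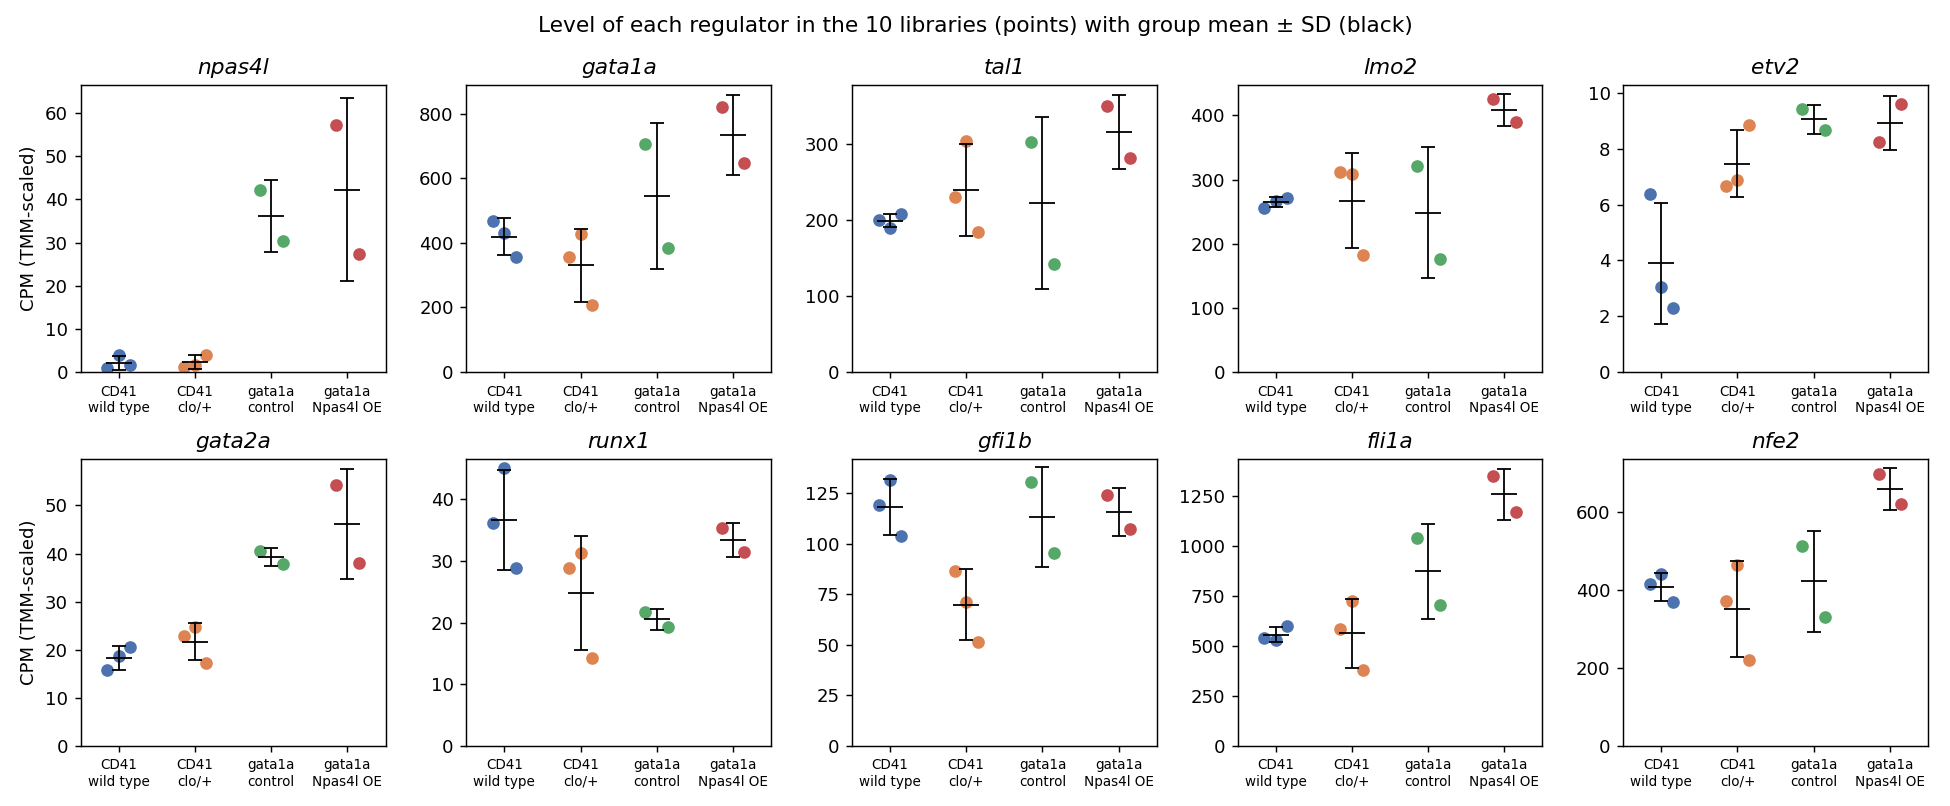
CPM of each of the 10 genes in every library (points), by group, with the mean and SD in black, on linear axes that start at 0. npas4l lies between 0.889 and 4.04 CPM in the CD41 libraries and between 27.4 and 57.2 CPM in the gata1a libraries, and gfi1b is lower in the 3 clo/+ libraries than in any other library.

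The comparison of clo/+ with wild type asked whether the loss of 1 clo allele alters these regulators in CD41-sorted heart cells. No member passed the adjusted threshold. gfi1b, a zinc finger repressor, was the member with the smallest p, at a lower level in clo/+. runx1 was also lower and etv2 higher in clo/+, both with wider errors. The medians of the log2 fold changes were 0.003 over the 10 members and -0.002 over all genes tested.

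gfi1b was at 119, 132 and 104 CPM in wild type and at 86.6, 71.4 and 51.6 CPM in clo/+. All 3 clo/+ libraries lay below all 3 wild-type libraries, and the group means were 118 ± 13.9 and 69.8 ± 17.6 CPM (SD, n = 3 each). The fitted log2 difference was -0.77 (SE 0.22, 95% interval -1.24 to -0.31), with an unadjusted p of 0.0026 and an adjusted p of 0.200 in the edgeR quasi-likelihood test with Benjamini-Hochberg adjustment. DESeq2 gave -0.77 with an adjusted p of 0.0497, so its call depended on the tool. With each library left out in turn the value stayed between -0.95 and -0.60.

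runx1 was at 36.2, 45.1 and 28.9 CPM in wild type and at 28.9, 31.2 and 14.3 CPM in clo/+. These ranges overlapped, and clo/+ replicate 3 was the lowest. The log2 fold change was -0.57 (SE 0.27) with an edgeR adjusted p of 0.412, and it was -0.31 without clo/+ replicate 3. etv2, with only 20 to 83 counts per CD41 library, was at 6.37, 3.04 and 2.29 CPM in wild type and at 6.67, 6.89 and 8.85 CPM in clo/+. Wild-type replicate 1 lay just under the clo/+ range, so the groups were separated by a narrow gap. Its log2 fold change was 0.93 (SE 0.44, edgeR adjusted p 0.403), and with 1 library left out it ranged from 0.67 (without wild-type replicate 3) to 1.48 (without wild-type replicate 1).

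For gata1a, tal1 and lmo2 the ranges of the groups overlapped. gata1a was at 468, 432 and 356 CPM in wild type and at 355, 429 and 207 CPM in clo/+, with a log2 fold change of -0.36 and an interval from -0.88 to 0.17. Without clo/+ replicate 3 it was -0.11, and without clo/+ replicate 2 it was -0.58. tal1 was at 200.05, 189.8 and 207 CPM and at 229.7, 304 and 185 CPM, with a log2 fold change of 0.25 (interval -0.20 to 0.71). That of tal1 ran from 0.051 (without clo/+ replicate 2) to 0.41 (without clo/+ replicate 3). lmo2 was at 256, 266 and 272 CPM in wild type and at 311, 309 and 182 CPM in clo/+. Its wild-type libraries agreed within a CV of 3.02%, whereas the CV over clo/+ was 27.6%. The log2 fold change of lmo2 was 0.0014, with an interval from -0.48 to 0.48.

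nfe2, a bZIP factor needed for thrombocyte formation in zebrafish, was at 414, 439.8 and 369 CPM in wild type and at 372, 463 and 219.8 CPM in clo/+. fli1a was at 537, 531 and 599 CPM and at 584, 723 and 381 CPM in the same order. gata2a was at 15.7, 18.7 and 20.6 CPM and at 22.9, 24.8 and 17.3 CPM. All 3 overlapped between the groups. The intervals of their log2 fold changes ran from -0.75 to 0.29 (nfe2), from -0.49 to 0.50 (fli1a) and from -0.29 to 0.74 (gata2a), so a 2-fold difference lies outside each of them. npas4l itself had an interval from -1.44 to 1.52, so a 2-fold difference in either direction lies within it.

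By edgeR, 0 of the 10 members had an adjusted p under 0.05, beside 0.0145% of the 13749 genes tested. At an unadjusted p under 0.05 there were 3 members (etv2 higher, runx1 and gfi1b lower), beside 12.0% of all genes (7.19% higher and 4.79% lower). Wild type and clo/+ were fully separated in CPM for 2 members, etv2 higher and gfi1b lower, beside 18.2% of all genes (9.63% higher and 8.59% lower). The 2 of 10 members are a share close to that background. DESeq2 called 1 member, gfi1b, beside 1.09% of all genes.

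clo/+ replicate 3 was the lowest of its group for 8 of the 10 members. Its median deviation from the group mean was -0.46 on the log2 scale, and its summed thrombocyte list was the lowest of all 10 libraries, at 6486 CPM against 8572 and 10752 CPM in the other clo/+ libraries. Scaled to the thrombocyte list, gfi1b was at 11.4, 12.65 and 11.385 CPM per 1000 CPM of that list in wild type and at 10.1, 6.64 and 7.95 in clo/+. The groups still did not overlap on this scale, which was chosen after the values were seen. On the same scale tal1 was at 19.1, 18.2 and 22.7 in wild type and at 26.8, 28.3 and 28.5 in clo/+, without overlap and in the other direction. gata2a, at most 2.26 in wild type and at least 2.30 in clo/+, and etv2, at 0.609, 0.292 and 0.251 against 0.778, 0.641 and 1.36, were also higher in clo/+ without overlap. Thus 3 members were separated upward and 1 downward on this scale, beside 13.7% and 2.79% of all genes tested. In the thrombocyte list 14 of 19 tested genes were negative, and their median was -0.31 on the log2 scale. Its summed range in wild type was 9128 to 10464 CPM, and 1 of its genes had no count in any library.

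The ratio of gfi1b to other members within a library does not depend on scaling. gfi1b over nfe2 was 0.288, 0.299 and 0.282 in wild type and 0.233, 0.154 and 0.235 in clo/+. Over gata1a the ratio was 0.255, 0.305 and 0.292 in wild type and 0.244, 0.166 and 0.249 in clo/+, where the nearest libraries of the 2 groups almost touched. Over tal1 it was 0.596, 0.693 and 0.502 against 0.377, 0.235 and 0.279, and over fli1a 0.222, 0.248 and 0.173 against 0.148, 0.0987 and 0.135. Over runx1 it was 3.30, 2.92 and 3.60 in wild type and 2.99, 2.28 and 3.61 in clo/+, so these groups overlapped and clo/+ replicate 3 was the highest. Of the ratios to the 9 other members, 7 were lower in every clo/+ library than in every wild-type library, and those over runx1 and npas4l overlapped. The ratio of gfi1b to any tested gene with counts in all 6 libraries was separated in this way for 51.1% of 13520 genes. These ratios were also chosen after the values were seen, and the smallest p that exact permutation allows for groups of 3 is 0.1.

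**Figure D2:**
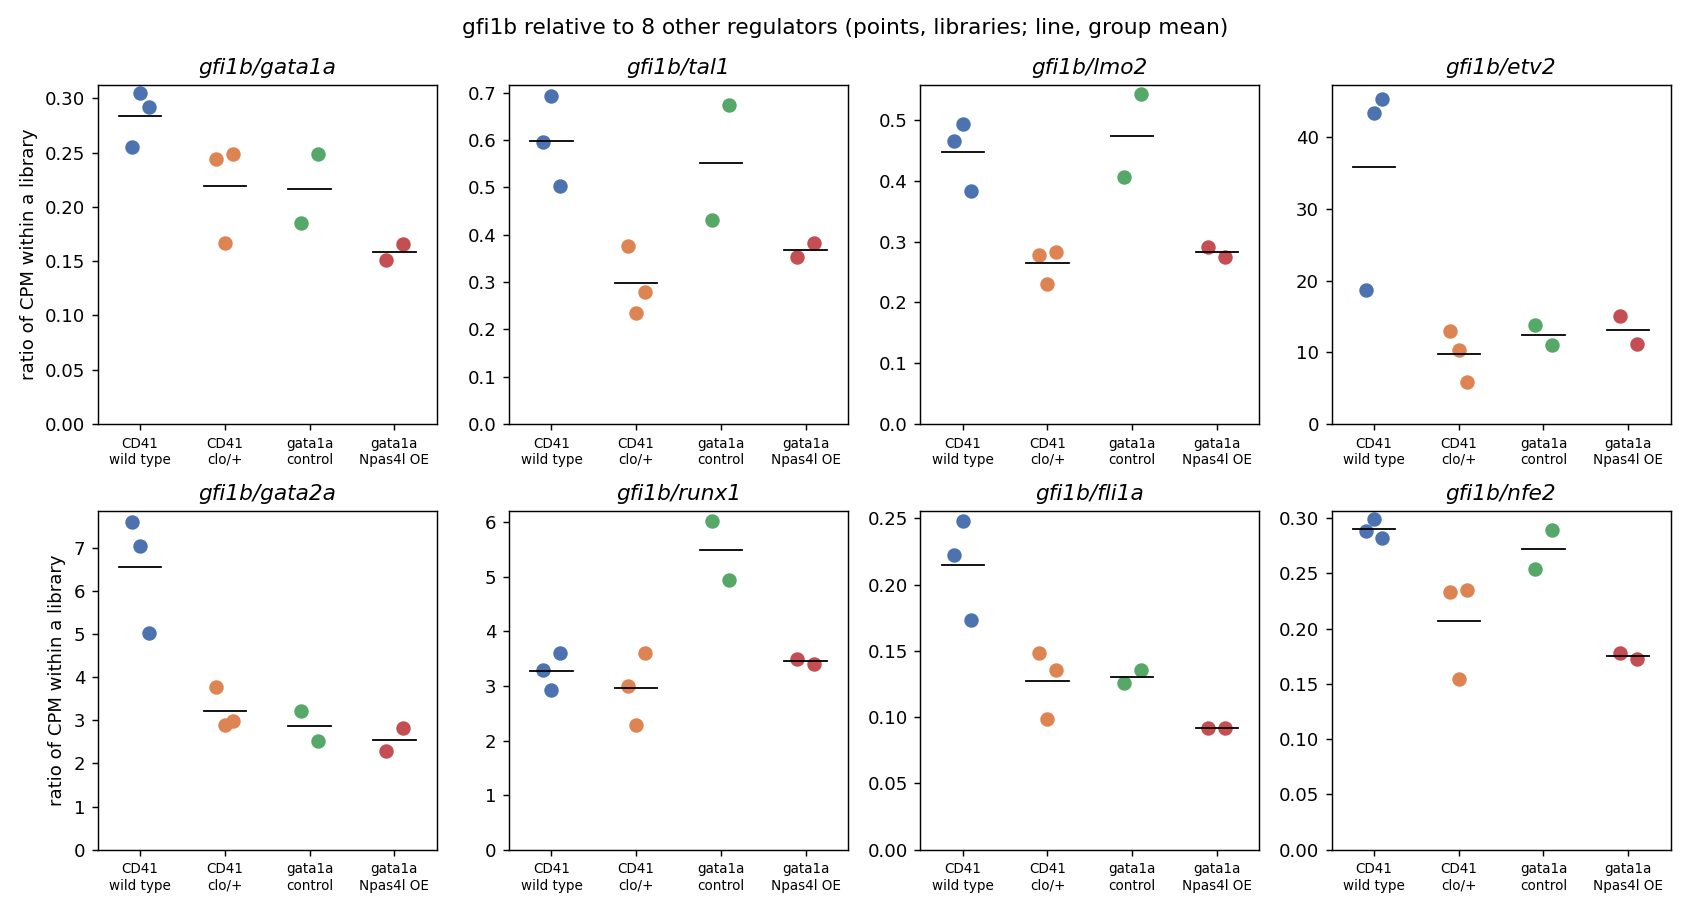
Ratio of the CPM of gfi1b to that of each other member except npas4l within each library (points) with the group mean (line), on linear axes that start at 0. The clo/+ libraries lie below the wild-type libraries in 7 panels and overlap with them for gfi1b over runx1, and for gfi1b over nfe2 the libraries labelled Npas4l OE, at 0.178 and 0.172, lie below the controls, at 0.254 and 0.289.

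For other haematovascular regulators the same comparison had 37 tested genes of 44 matched. By edgeR 0 were called, and 4 had an unadjusted p under 0.05, all higher. Over all genes tested that share was 12.0%, or 7.19% counted as higher only. Their median log2 fold change was 0.17. The endothelial genes, which ETS factors such as Etv2 and Fli1a regulate, had a median of 0.41 with 16 of 19 tested genes positive and none called. Their summed level was 1622 to 2432 CPM in wild type and 1662 to 2161 CPM in clo/+, and no gene of the list was at 0 in every library of either group. The summed level overlapped between the groups, while most tested genes were positive, as was etv2. Other lists leaned the same way, with 13 of 15 macrophage, 10 of 14 fibroblast and epicardium and 11 of 13 cardiomyocyte genes positive. Their medians were 0.395, 0.391 and 0.285. The thrombocyte and neutrophil lists leaned the other way, with 14 of 19 and 4 of 6 genes negative. The erythroid list was nearly even, with 8 of 15 genes negative and a median of -0.038. Its summed level was higher in clo/+ without overlap, at 3815.5 to 4129 CPM against 3212 to 3783 CPM in wild type. Whether any of these lists bears on the difference of etv2 was not tested.

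The comparison of libraries labelled Npas4l OE with controls asked how activation of the transgene bears on the same genes in gata1a-sorted cells. No member passed the adjusted threshold here either. Of the 10 members, 9 had a positive log2 fold change, and lmo2, runx1, nfe2 and fli1a had both libraries labelled Npas4l OE above both controls. The medians were 0.46 over the members and -0.010 over all genes tested.

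lmo2 was at 321 and 176 CPM in the controls and at 426 and 390.2 CPM with the Npas4l OE label. Its log2 fold change was 0.71 (SE 0.28, interval 0.095 to 1.32), with an edgeR adjusted p of 0.256. runx1 was at 21.7 and 19.4 CPM against 35.4 and 31.5 CPM. The controls lay close together for this gene, and its log2 fold change of 0.69 (SE 0.27, edgeR adjusted p 0.254) moved only from 0.62 to 0.80 as each library was left out. nfe2 was at 514 and 330.5 CPM against 697 and 622 CPM, a log2 fold change of 0.63 (SE 0.24, edgeR adjusted p 0.251). fli1a was at 1039 and 705 CPM against 1349 and 1168 CPM, a log2 fold change of 0.52 (SE 0.23, edgeR adjusted p 0.317).

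For lmo2, nfe2 and fli1a the controls were far apart, and replicate 2 was the lower control for all 10 members. Without control replicate 2 their log2 fold changes were 0.35, 0.36 and 0.28, and without control replicate 1, the library labelled clofv087b/+, they were 1.19, 0.98 and 0.82. In the latter fit all 3 had an edgeR adjusted p under 0.05 (0.00670, 0.0100 and 0.0131), as did tal1 and gata1a (0.0124 and 0.0188). That fit called 1111 of 14830 genes, or 7.49%, against 5 genes with both controls. It rests on 1 control library, assumed to vary like the 2 libraries labelled Npas4l OE.

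gata1a was at 706 and 385 CPM in the controls and at 821 and 647 CPM with the Npas4l OE label, with a log2 fold change of 0.42 (interval -0.21 to 1.05). tal1 was at 302 and 142 CPM against 350.1 and 281 CPM, with a log2 fold change of 0.50 (interval -0.21 to 1.21). gata2a was at 40.5 and 37.9 CPM against 54.3 and 38.0 CPM, so that only replicate 1 stood above the controls. In each of these 3 genes the groups overlapped. etv2, at 9.43 and 8.69 CPM against 8.24 and 9.61 CPM, had a log2 fold change of -0.033 (interval -0.85 to 0.78). gfi1b, at 131 and 95.6 CPM against 124 and 107 CPM, had one of 0.021 (interval -0.51 to 0.55). For npas4l the log2 fold change was 0.21 with an interval from -0.57 to 1.00.

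By edgeR, 0 of the 10 members had an adjusted p under 0.05, beside 0.0357% of the 14006 genes tested, and DESeq2 also called 0. At an unadjusted p under 0.05 there were 4 members, all higher, beside 15.5% of all genes, or 6.11% counted as higher only. Full separation of the groups was seen for 4 members, all higher, beside 47.8% of all genes in either direction and 24.1% counted as higher only.

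The summed levels of several lists of other cells were also separated between these groups. Taken singly, 47.8% of all genes tested were separated in either direction, and their median log2 fold change was -0.010. The cardiomyocyte list summed to 58853 and 68911 CPM in the controls and to 33898 and 33900 CPM with the Npas4l OE label, with 13 of 13 tested genes negative. The macrophage list, with 12 of 14 tested genes negative, summed to 1330 and 2676 CPM against 273 and 1025 CPM. The endothelial list, with 16 of 17 negative, summed to 1250 and 1266 CPM against 785 and 898 CPM. In that list flt4 and mrc1a were at 0 counts in both libraries labelled Npas4l OE, and control replicate 2 also had 2 genes at 0 counts. Thrombocyte genes summed to 12042 and 10922 CPM against 14388 and 13096 CPM. The neutrophil list overlapped, at 2047 and 1491 CPM in the controls against 2154 and 1949 CPM. So did the lymphocyte list, at 13.8 and 10.3 CPM against 5.45 and 10.8 CPM. None of these lists held a gene called by edgeR.

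Scaled to the thrombocyte list, runx1 was at 1.80 and 1.77 CPM per 1000 CPM of that list among controls, while the libraries labelled Npas4l OE were at 2.46 and 2.41. lmo2 was at 26.7 and 16.1 against 29.6 and 29.8, nfe2 at 42.7 and 30.3 against 48.4 and 47.5, and fli1a at 86.3 and 64.6 against 93.7 and 89.2. These 4 genes were already separated before scaling. On this scale 2 members were lower without overlap, gfi1b at 10.8 and 8.75 against 8.61 and 8.18 and etv2 at 0.783 and 0.796 against 0.573 and 0.733. The 4 members higher and 2 lower stand beside 12.7% and 36.0% of all genes tested. gfi1b over fli1a was 0.126 and 0.136 among controls, against 0.0918 and 0.0917 with the Npas4l OE label. Of its ratios to the 9 other members, 6 were lower in both libraries with that label than in both controls, and those over npas4l, etv2 and gata2a overlapped. The same separation was seen for 20.9% of 13758 genes. Unscaled, gfi1b overlapped between these groups, with a log2 fold change of 0.021.

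**Figure D3:**
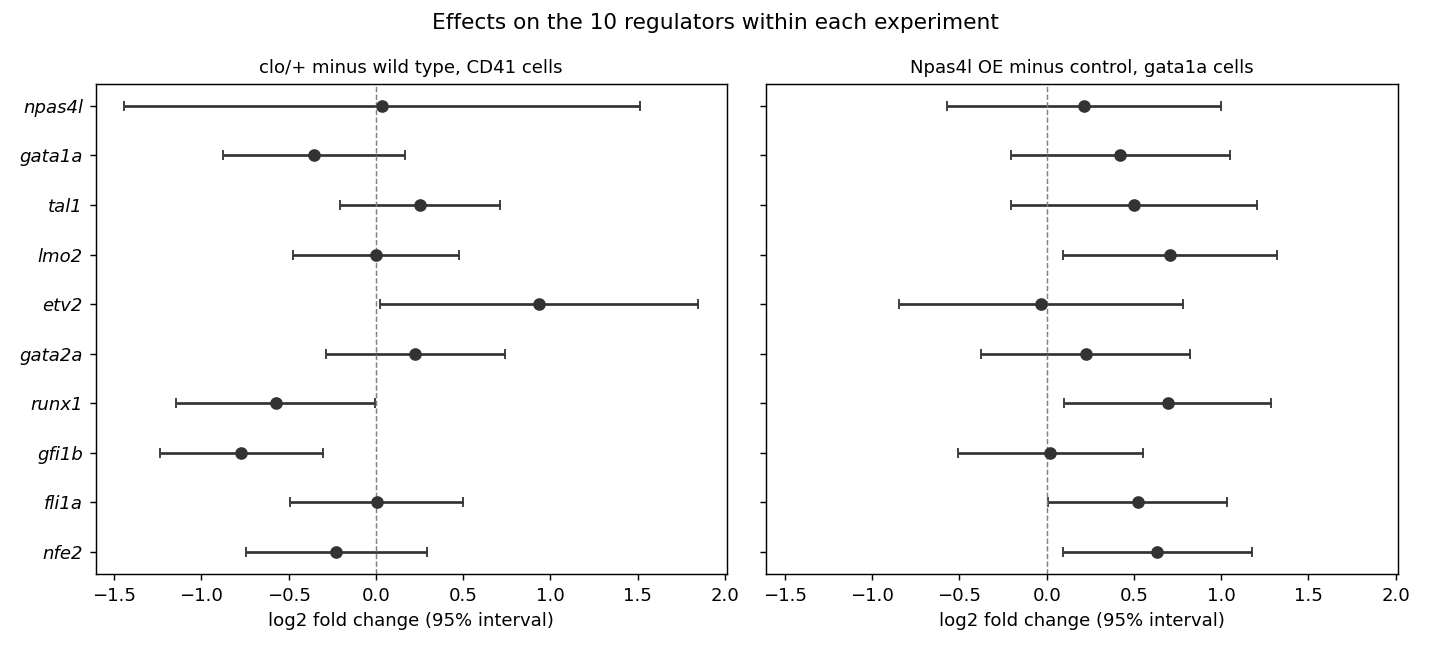
Log2 fold change of each gene with its 95% interval from edgeR, for clo/+ minus wild type (left) and for Npas4l OE minus control (right). On the left gfi1b and runx1 lie below 0 and etv2 above it, and on the right lmo2, runx1, fli1a and nfe2 lie above 0 with intervals that do not reach it, while no adjusted p is under 0.05.

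Among 36 tested genes of the other haematovascular regulators, 0 were called by edgeR in the libraries labelled Npas4l OE. At an unadjusted p under 0.05, 6 were higher and 6 lower, beside 15.5% of all genes in either direction and 6.11% higher. The median log2 fold change of these regulators was -0.22. The erythroid genes, many of which Gata1 activates in vertebrates, had 13 of 15 tested genes negative and a median of -0.81. By edgeR 0 were called. At an unadjusted p under 0.05, 7 were lower and 0 higher, beside the same 15.5% of all genes in either direction. Both libraries labelled Npas4l OE, at 695 and 760.5 CPM summed, lay between the controls at 1287 and 693 CPM. The log2 fold change of gata1a was 0.42, with an interval from -0.21 to 1.05, and it ran from 0.059 to 0.91 with a library left out. Cardiomyocyte, macrophage and endothelial lists had negative medians as well, at -0.93, -1.67 and -0.66. The thrombocyte list had a positive median, at 0.17, with 13 of 18 tested genes positive. Of the neutrophil list only 3 genes were tested, 2 of them positive, with a median of 0.21. Whether the erythroid genes bear on gata1a was not tested.

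The clo/+ and Npas4l OE comparisons share no library, and the difference between their effects was tested in one fit of all 10 libraries. This test was added after the values were seen. runx1 had the largest difference, 1.27 on the log2 scale (SE 0.43, interval 0.37 to 2.17), from -0.57 in clo/+ and 0.69 with the Npas4l OE label. Its unadjusted p was 0.0083 and its edgeR adjusted p 0.167. nfe2 differed by 0.86 (SE 0.39) and gfi1b by 0.79 (SE 0.34), with edgeR adjusted p of 0.302 and 0.277. etv2 had the second largest difference by size, in the other direction, at -0.97 (SE 0.60, edgeR adjusted p 0.476). In all, 0 members were called, beside 0.774% of the 15380 genes tested, and 3 had an unadjusted p under 0.05, all positive, beside 15.3% of all genes and 5.84% counted as positive only, while DESeq2 called 0. The 2 effects differ in reporter, injury, 4-HT and time as well as in the gene dose that the labels state, and these cannot be told apart. Control replicate 1 of the gata1a experiment is labelled clofv087b/+, so that genotype enters both effects.

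**Figure D4:**
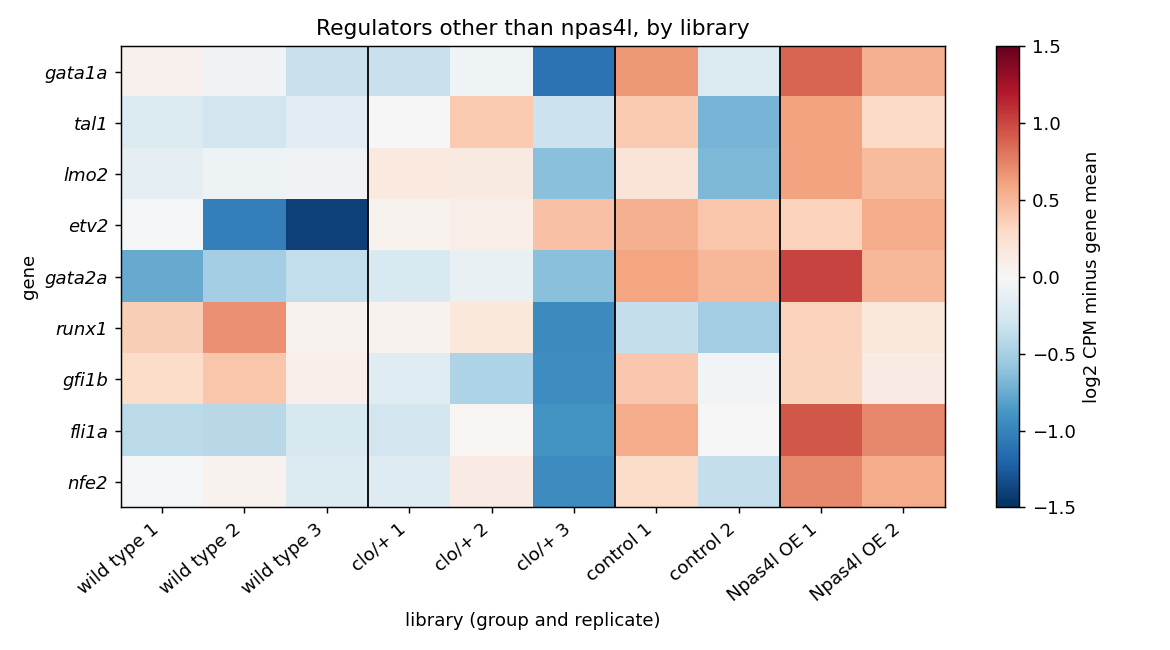
Log2 CPM of the 9 genes other than npas4l in each library, minus the mean of that gene over the 10 libraries, with black lines between groups. clo/+ replicate 3 is the lowest of its group for 8 of the 9 genes, with etv2 as the exception. lmo2, fli1a and nfe2 are highest in the 2 libraries labelled Npas4l OE.

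The levels across the sorts were compared between gata1a control and CD41 wild-type libraries, where reporter, injury, 4-HT, genotype and experiment cannot be told apart. Of the 10 members, 4 passed the test, 3 higher and 1 lower in gata1a controls, beside 20.5% of the 14245 genes tested (9.57% higher and 10.9% lower). npas4l was the most different, at 36.2 ± 8.37 CPM (SD, n = 2) against 2.17 ± 1.63 CPM (SD, n = 3). Its log2 fold change of 4.02 (SE 0.45, interval 3.06 to 4.99) had an edgeR adjusted p of 4.56e-05 and ranked 131 among all genes by p. With each library left out it stayed between 3.68 and 4.80, with control replicate 1 left out at 3.76 and an edgeR adjusted p of 0.000635.

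gata2a was at 39.2 ± 1.84 CPM (SD, n = 2) in gata1a controls and 18.4 ± 2.49 CPM (SD, n = 3) in CD41 wild type. It rose by 1.09 on the log2 scale (SE 0.25, edgeR adjusted p 0.00755), and it passed the test under all 14 alternatives. runx1 fell by 0.85 (SE 0.27, edgeR adjusted p 0.0407), from 36.7 ± 8.10 to 20.5 ± 1.64 CPM (SD, n = 3 and 2). fli1a rose by 0.64 (SE 0.21, edgeR adjusted p 0.0471), from 556 ± 37.7 to 872 ± 236 CPM. The calls of runx1 and fli1a were near the threshold. Both were lost when wild-type replicate 1, wild-type replicate 2 or control replicate 1 was left out, and fli1a was at 0.33 in the last of these. runx1 was also lost without control replicate 2 and fli1a without wild-type replicate 3 (0.71). In one fit of all 10 libraries both were lost, with edgeR adjusted p of 0.0638 for runx1 and 0.0823 for fli1a. fli1a was lost as well by library size only (edgeR adjusted p 0.0560). With all 6 CD41 against all 4 gata1a libraries runx1 was -0.18, while fli1a was 0.94 (edgeR adjusted p 0.0028). In that fit gata1a, not called in the main test, was at 0.78 (edgeR adjusted p 0.019). It pools the clo/+ and Npas4l OE libraries with the others.

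etv2 was higher in both gata1a controls than in any wild-type CD41 library, and the log2 difference was 1.22 (SE 0.50, edgeR adjusted p 0.104). The remaining 5 members had log2 fold changes from -0.096 (lmo2) to 0.38 (gata1a), and their ranges overlapped. Full separation was seen for 5 members, 4 higher and 1 lower, beside 50.1% of all genes (24.6% higher and 25.5% lower). The gata1a promoter also drives the reporter by which one set of cells was sorted.

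Ordered by mean CPM from low to high, npas4l had the sequence wild type, clo/+, gata1a control and Npas4l OE, and among neighbours in it only the step from clo/+ to gata1a control separated the ranges, by a ratio of 15.8. gata2a had the same order, with its one separated step again between clo/+ and gata1a control, a ratio of 1.81. gfi1b was lowest in clo/+, separated from gata1a control, while gata1a control, Npas4l OE and wild type, with means of 113, 116 and 118 CPM, overlapped. runx1 was lowest in gata1a controls and highest in wild type. For tal1 and gata1a each group overlapped with the next in order.

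**Figure D5:**
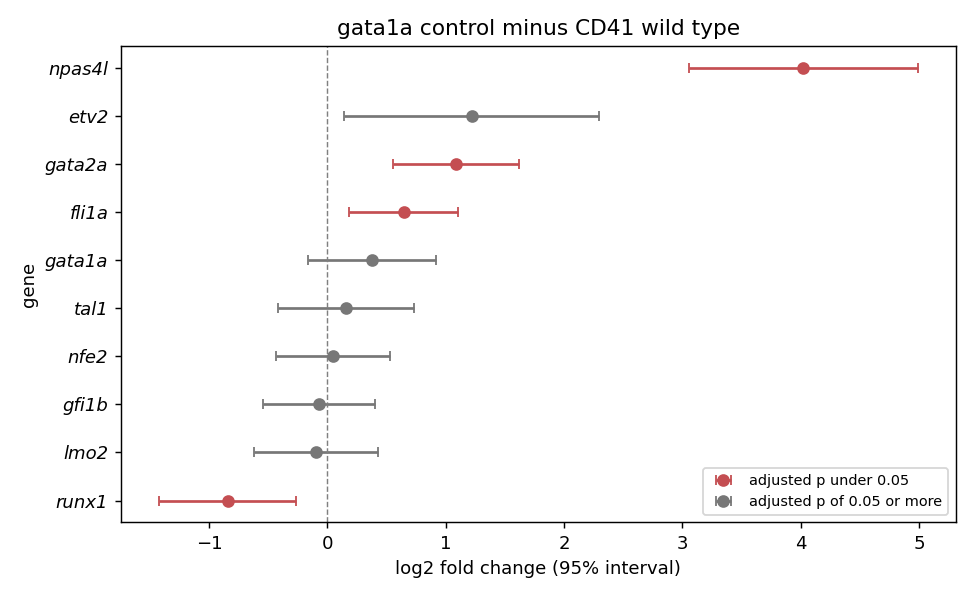
Log2 fold change of each gene in gata1a control against CD41 wild-type libraries, with its 95% interval from edgeR. npas4l lies at 4.02, apart from the other genes, and gata2a, fli1a and runx1 are the other genes with an adjusted p under 0.05.

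In the same comparison 37 other haematovascular regulators were tested, and edgeR called 3 higher and 4 lower. Over all genes tested it called 20.5%, with 9.57% higher and 10.9% lower, so the list held no excess of calls. Lower were klf1 (ENSDARG00000017400), with a log2 fold change of -2.89, and klf17 (ENSDARG00000038792), at -2.23, both Kruppel-like factors of red cells. cebpa, a factor of myeloid cells, was lower at -1.68, and tal2, a bHLH paralogue of tal1, at -2.05. zbtb16a was higher at 2.02, and irf8, a factor of macrophage development, was also higher. Among these 6 genes the edgeR adjusted p was at most 0.0183.

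The calls of the lists below stand beside 9.57% of all genes tested called higher and 10.9% called lower. Of 15 tested erythroid genes 9 were called lower and 0 higher, with a median of -2.45. The list summed to between 3212 and 3783 CPM in CD41 wild type and to 1287 and 693 CPM in gata1a controls. Thrombocyte genes were called in both directions, 5 higher and 5 lower of 18. Their median log2 fold change was -0.22, with 10 genes negative. Among those called higher, itga2b had a log2 fold change of 1.30 and mpl, the thrombopoietin receptor, one of 1.05. Of 14 macrophage genes 9 were called higher and 1 lower, and of 13 cardiomyocyte genes 8 higher and 1 lower. All 6 tested neutrophil genes were called lower, with lyz, mmp13a and npsn at 0 counts in the gata1a libraries. Of 18 endothelial genes 9 were called higher and 1 lower, with a median of 0.76. The summed endothelial list was nonetheless lower, at 1250 and 1266 CPM in gata1a controls against 1622 to 2432 CPM in CD41 wild type. These shifts stood beside the differences of npas4l, gata2a, runx1 and fli1a, and their part in them was not tested.

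Likeness between profiles was measured as the root mean square difference of log2 CPM, centred on each gene's mean, over the 10 libraries. The closest pairs among the members were gata1a with nfe2 (0.176), tal1 with lmo2 (0.178) and lmo2 with nfe2 (0.198). npas4l was the farthest from every other member, with gata2a the nearest at 1.63. Among all 9956 genes at 5 CPM or more with a symbol, the 5 most like npas4l were si:ch73-338d8.1 (0.813), si:dkey-238c7.13 (0.850), KCTD12 (0.856), gpr35.1 (0.876) and DPYSL3 (0.887). These distances were large beside those of the nearest genes to the other members. The measure is not scaled to a gene's range, so a gene that ranges as widely as npas4l lies far from any gene with a narrow range. The mean of si:dkey-238c7.13 was 1500 CPM in gata1a control and 465 CPM in Npas4l OE, where npas4l was at 36.2 and 42.3 CPM.

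For the other members the most similar gene at 10 CPM or more lay at 0.080 for nfe2 (tpte), 0.095 for gata1a (zgc:172143), 0.106 for runx1 (mtss1) and 0.109 for fli1a (agfg1b). The distances were 0.116 for lmo2 (tbl1xr1a), 0.118 for tal1 (ANXA11), 0.139 for gfi1b (SVBP), 0.171 for gata2a (ppp2r2ba) and 0.222 for etv2 (FBLIM1). SVBP, the gene most like gfi1b, had means of 23.8 CPM in wild type, 14.8 in clo/+, 24.7 in gata1a control and 22.2 in Npas4l OE. With 10 libraries and so many genes searched, a near match says only that the levels moved alike in these libraries.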

How the data were processed

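Counts are whole-number read counts per Ensembl gene as deposited, one file per library. The submitters' processing notes name GRCz11, FastQC 0.11.4, Trim Galore 0.6.0, HISAT2 2.1.0 and DESeq2 1.22.1. The counter and strand use are not given in the sources used here. The files set aside 16.9% to 20.7% of reads as not uniquely aligned and 1.70% to 2.48% as ambiguous. Whether paralogues such as gata2a and gata2b, or overlapping genes, still exchange reads was not tested. No molecular identifiers are mentioned, so precision from counts covers counting error only. Summary lines that name no gene were left out, and genes held 41.0% to 49.3% of reads.

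Each comparison was fitted on its own groups with edgeR 4.0.16 in R 4.3.3: filterByExpr (minimum count 10, total 15), TMM scaling, then quasi-likelihood testing, with Benjamini-Hochberg adjustment over all genes tested (threshold 0.05). Standard errors are the log2 fold change over the square root of F, and 95% intervals use the test's degrees of freedom. Printed CPM use TMM factors over all 10 libraries. Tests are two-sided. Alternatives were RLE or no factors, other filters, DESeq2 1.42.0, a shared fit over the 10 libraries, a replicate block, and each replicate left out. The adjusted deviance of edgeR, the pooling of all libraries by sort and the difference of the 2 effects were chosen after seeing the data. Simulated counts with known changes served to test the scripts.

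The members and gene lists were chosen with earlier results of these data known. List symbols matched the name table exactly, by a RefSeq (GRCz12tu) synonym, or after dropping a paralogue letter, which can match several genes. Named genes were the 10 members, list genes with an adjusted p under 0.05 (up to 6 per list by p), and genes most like each member in profile. A planned promoter motif search was not run, since promoter sequences were not used here. Replicates of a group differed beyond counting noise (chi-square per degree of freedom 11.04 to 43.6).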

Additional observations from a re-analysis of the deposited data

How the results depend on the processing

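For clo/+ against wild type, edgeR called 2 genes in all, and the count was 211 without a filter, 4 with at least 10 counts in every library, 150 by DESeq2, 1 in one fit of all 10 libraries, 120 with the replicate block, 4 with adjusted deviance and 0 to 17 with a replicate left out. For Npas4l OE against control it called 5 genes, and 2 by library size only, 648 without a filter, 30 with at least 10 counts, 385 by DESeq2, 110 in one fit, 187 with the replicate block, 69 with adjusted deviance and 52 to 1111 with a replicate left out. The difference of the effects had 119 genes, and 67 by library size only, 640 without a filter, 211 with at least 10 counts, 500 by DESeq2, 269 with the replicate block and 20 to 248 with a replicate left out. For gata1a control against CD41 wild type it called 2920 genes, and 1945 to 2654 with a replicate left out, the fewest without wild-type replicate 1. The cause of these shifts was not tested.

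Signs turned only for members that were not called. For clo/+ the log2 fold change of npas4l was -0.019 in one fit and -0.085 with adjusted deviance, and with the replicate block lmo2 was -0.037 and fli1a -0.039. For Npas4l OE, etv2 was 0.16 by library size only. Between the sorts, nfe2 was -0.0085 by library size only and -0.058 with the replicate block, and with all 6 CD41 and all 4 gata1a libraries lmo2 was 0.31 and gfi1b 0.29. In the difference of the effects gata2a was 0.0040 with RLE factors, 0.13 by library size only, 0.0036 by DESeq2 and 0.0041 with the replicate block. With a replicate left out, the clo/+ values ran from -0.65 to 0.83 (npas4l), -0.12 to 0.21 (lmo2), -0.21 to 0.22 (fli1a) and -0.47 to 0.017 (nfe2). Those of Npas4l OE ran from -0.40 to 0.67 (npas4l), -0.13 to 0.084 (etv2), -0.046 to 0.48 (gata2a) and -0.17 to 0.25 (gfi1b). Between the sorts they ran from -0.13 to 0.75 (gata1a), -0.50 to 0.60 (tal1), -0.60 to 0.27 (lmo2), -0.32 to 0.14 (gfi1b) and -0.31 to 0.33 (nfe2). In the difference they ran from -0.55 to 0.89 (npas4l), -0.20 to 0.89 (tal1) and -0.31 to 0.23 (gata2a).

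Whether replicate numbers pair the samples was not settled. Deviations of same-numbered libraries correlated weakly, at 0.0071 to 0.080 between the CD41 groups and at 0.056 between the gata1a groups. Those of CD41 libraries with different numbers correlated at -0.083 to 0.014. With the replicate block gfi1b in clo/+ was -0.80, with an edgeR adjusted p of 0.0540, and fli1a between the sorts was 0.67, with one of 0.147. Counts were few for npas4l (6 to 33) and etv2 (20 to 83) per CD41 library. The spread of npas4l between pools nonetheless went beyond counting error. Its Poisson interval was 0.326 to 1.94 CPM in wild-type replicate 1 and 2.76 to 5.63 CPM in wild-type replicate 2. The planned promoter motif search was not run.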
